A study of Mus musculus with 4 samples.

Results

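The 9 genes described here encode transcription factors of fat cell formation: Pparg, Cebpa, Cebpb, Cebpd, Klf15, Zfp423, Ebf1, Ebf2 and Ebf3. They were taken by symbol from the 32285 genes of the count tables, and their levels were followed through adipocyte, progenitor, endothelial, macrophage and B cell nuclei named from marker genes. The tables hold single-nucleus RNA counts from fat of mice on a high-fat diet, with 1 library for each of 4 groups. The operation was bariatric surgery, per the series title. BAT sham and BAT surgery are the brown adipose tissue libraries of the sham-operated and the operated group, and BeAT sham and BeAT surgery are the beige adipose tissue libraries of the same groups. All groups shared the diet, and the genotype, strain, age, time after the operation and number of animals in a library are not stated in the labels. Values stand in a fixed order, sham before surgery and BAT before BeAT. With 1 library per group there was no replicate check, so each difference is one between libraries. The intervals are 95% intervals for counting error only. A UMI (unique molecular identifier) stands for 1 RNA molecule counted, and levels are counts per 1000000 UMIs of the class in a library (CPM).

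PPARG is the nuclear receptor without which no fat cell forms, and it acts on lipid genes together with the C/EBP factors. In the textbook order of adipogenesis CEBPB and CEBPD come first, PPARG and CEBPA follow and keep each other on, and KLF15 acts late. ZFP423 marks committed fat precursors and holds back the thermogenic programme in white adipocytes. The EBF proteins are named for early B cell factor: EBF1 sets B cell identity and also promotes adipogenesis, EBF2 marks brown and beige precursors, and EBF3 is a close relative.

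The count tables had 10445, 9946, 10417 and 5952 barcodes, and 23118695 to 60409801 UMIs each, and 310 barcodes occurred in more than 1 library. After filters and removal of doublets 9970, 9131, 9760 and 5302 nuclei remained, at a median of 2647 to 5168 UMIs. They fell into 42 clusters, and 0 of the 9 factors were among the genes used for clustering. Some measurements go against the labels. Ucp1, the uncoupling protein gene that defines brown and beige adipocytes, gave 2, 0, 3 and 0 UMIs in the adipocyte-like nuclei. Epithelial-like nuclei made up 61.9% of BAT surgery, and Gpx5, a gene of the epididymis, stood at 578 in adipocyte-like nuclei of that library and had 0 UMIs in those of each other library. The label names nuclear RNA, while the protocol describes a digested suspension checked for viable cells. Adipocyte-like nuclei made up 41.1, 6.23, 49.9 and 9.17% of the libraries. B cell-like nuclei made up 36.3% of BeAT surgery and 0.416 to 0.632% of the others. The classes also rest on unlike clusters. Of the 569 adipocyte-like nuclei of BAT surgery 518 formed cluster 18, which held 1 nucleus of BAT sham and 2 of BeAT surgery. Of the 151 progenitor-like nuclei of BAT surgery 84 formed cluster 38, which held no nucleus of another library. Values without these clusters are given for some of the results that rest on them. The other BAT results in adipocyte- and progenitor-like nuclei are given with the clusters alone.

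RNA from broken adipocytes can add UMIs to every other class, so the adipocyte hormone gene Adipoq was read beside the factors. In T or NK-like nuclei, which should lack it, Adipoq stood at 314 in the sham and 16.4 in the surgery library of BAT, and 283 and 20.6 in those of BeAT. In the same nuclei Pparg stood at 602, 40.9, 399 and 207 and Ebf1 at 323, 32.7, 219 and 309, and a level near these is read as background below. In adipocyte-like nuclei Adipoq stood at 576, 324, 819 and 293. Outside them it was lower in both surgery libraries than in both shams, in progenitor-, endothelial- and macrophage-like nuclei alike. All 11 adipocyte markers had UMIs in these 3 classes in every library, so none was at 0. The part of this RNA in the differences between libraries was not tested. BAT surgery also had RNA of the epididymal gene Gpx5 outside epithelial-like nuclei. In its progenitor-like nuclei Gpx5 stood at 1249, with a UMI in 82.8% of them, and those of both shams had 0 UMIs. The part of epithelial RNA in the factor levels of BAT surgery was not tested either.

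The sequences before the start sites are shown for factors whose levels went different ways in adipocyte-like nuclei, because the C/EBP and EBF proteins bind DNA and act on one another's genes. They are the 250 bases before a start annotated in RefSeq (GRCm38.p6), 5′ to 3′ on the gene's strand. Capitals mark a C/EBP core (TTGCNNAA, or TTNNGCAA for the other strand) or an EBF core (CCCNNGGG, which reads alike on both strands).
Pparg, upstream start, chr6:115360894-115361143, plus strand: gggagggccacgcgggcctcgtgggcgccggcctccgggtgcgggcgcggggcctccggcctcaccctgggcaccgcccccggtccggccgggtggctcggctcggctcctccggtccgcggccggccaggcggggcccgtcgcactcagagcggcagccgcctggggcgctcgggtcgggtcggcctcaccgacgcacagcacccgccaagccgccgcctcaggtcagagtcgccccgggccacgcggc
Pparg, downstream start, chr6:115421816-115422065, plus strand: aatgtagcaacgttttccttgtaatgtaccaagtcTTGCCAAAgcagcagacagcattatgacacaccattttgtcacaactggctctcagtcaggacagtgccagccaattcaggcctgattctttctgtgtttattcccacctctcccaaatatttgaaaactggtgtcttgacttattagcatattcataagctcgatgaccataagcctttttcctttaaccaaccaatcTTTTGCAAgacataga
Cebpa, chr7:35119043-35119292, plus strand: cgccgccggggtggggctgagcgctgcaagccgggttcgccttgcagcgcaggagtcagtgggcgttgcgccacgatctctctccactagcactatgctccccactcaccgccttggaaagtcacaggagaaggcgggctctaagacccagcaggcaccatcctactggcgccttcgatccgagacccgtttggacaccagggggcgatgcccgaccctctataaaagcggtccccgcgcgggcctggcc
Zfp423, outer start, chr8:87959596-87959845, minus strand: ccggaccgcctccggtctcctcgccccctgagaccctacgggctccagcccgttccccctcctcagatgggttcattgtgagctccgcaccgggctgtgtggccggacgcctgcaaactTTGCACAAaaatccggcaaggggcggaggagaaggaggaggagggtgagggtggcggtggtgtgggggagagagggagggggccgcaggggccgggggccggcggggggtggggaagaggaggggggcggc
Ebf3, chr7:137314446-137314695, minus strand: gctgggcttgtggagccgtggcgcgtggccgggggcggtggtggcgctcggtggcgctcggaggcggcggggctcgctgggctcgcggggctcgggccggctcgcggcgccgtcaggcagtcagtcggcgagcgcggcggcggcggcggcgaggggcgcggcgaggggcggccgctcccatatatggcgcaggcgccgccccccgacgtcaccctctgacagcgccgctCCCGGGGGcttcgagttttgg

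RefSeq promoters were found for 7 of the 9 factors, in 11 windows. The downstream start of Pparg, which gives the isoform typical of fat cells, had C/EBP cores at positions -215 and -16 from the start, and the upstream start had neither core. The outer Zfp423 window had a C/EBP core at -131, the inner Zfp423 window an EBF core at -28, the Ebf3 window an EBF core at -21 and the Cebpb window an EBF core at -208. The windows of Cebpa, Klf15 and Ebf1 had neither. Over all 32851 promoter windows of that length 9.56% held a C/EBP core and 11.8% an EBF core, so a match describes letters and names no site. The counts are per gene and do not say which start was used.

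In the GENCODE M21 annotation (GRCm38) the genes lie at chr6:115360951-115490399, plus strand (Pparg), chr7:35119293-35121928, plus strand (Cebpa), chr2:167688915-167690418, plus strand (Cebpb), chr16:15887286-15891031, plus strand (Cebpd) and chr6:90462576-90475238, plus strand (Klf15). The others lie at chr8:87661810-87959595, minus strand (Zfp423), chr11:44617317-45008091, plus strand (Ebf1), chr14:67233292-67430918, plus strand (Ebf2) and chr7:137193673-137314445, minus strand (Ebf3). All of the gene body can give reads in nuclear RNA, introns included.

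**Figure D1:**
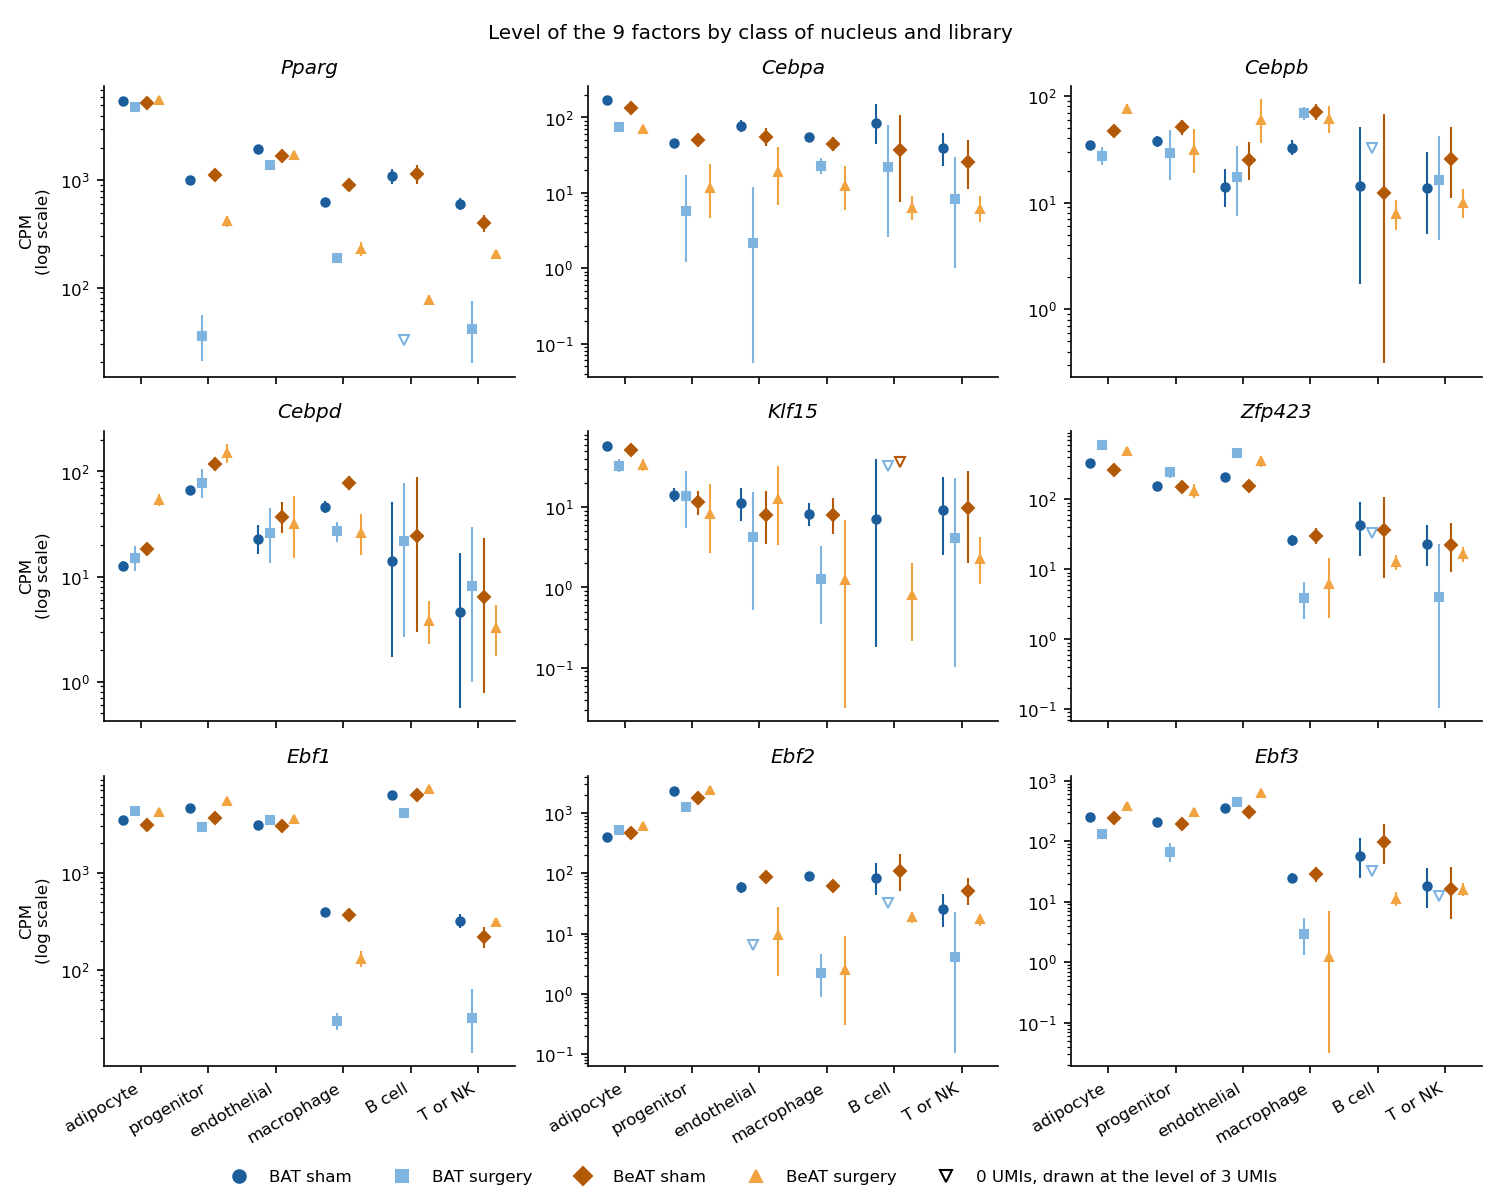
Level of each factor (CPM, log axis) in 6 classes of nuclei, with 1 point per library and bars for the 95% counting interval. Open triangles had 0 UMIs and are drawn at the level of 3 UMIs. Pparg was highest in adipocyte-like, Ebf2 in progenitor-like and Ebf3 in endothelial-like nuclei of all 4 libraries.

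Pparg had the largest share of its UMIs in adipocyte-like nuclei of the 9 factors in every library. They held 86.2, 86.9, 87.6 and 88.3%. Its level there was 5476 (5447 to 5505) in the sham and 4847 (4775 to 4919.5) in the surgery library of BAT, and 5291 (5259 to 5322) and 5645 (5573 to 5717) in those of BeAT. The libraries lay close together, and the surgery libraries fell on opposite sides of their shams. The ratio to the sham was 0.885 (0.871 to 0.899) in BAT and 1.07 (1.05 to 1.08) in BeAT. The direction in BAT turned to a log2 ratio of 0.20 without cluster 18, on the 34 and 17 nuclei of BAT surgery left in clusters 1 and 2. With nuclei classed by their own markers it was -0.77. In BeAT it turned to -0.23 with the trend of ratios over gene span taken off. A Pparg UMI was found in 99, 97.5, 98.5 and 99% of adipocyte-like nuclei, at median depths of 4125 to 8797 UMIs. In T or NK-like nuclei it was found in 19.1, 5.07, 12.8 and 6.81%, at median depths of 1380.5 to 2598. With each nucleus thinned to 1000 UMIs the shares were 94.9 to 97.3% and 2.56 to 12.8%.

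Endothelial-like nuclei came second for Pparg in every library, and the level differed between kinds of vessel. It was 1962 (1898 to 2028) in the sham and 1386 (1281 to 1497) in the surgery library of BAT, and 1674 (1595 to 1756) and 1733 (1591 to 1884) in those of BeAT, each above the level in T or NK-like nuclei. Cluster 12, which has the capillary genes Gpihbp1 and Btnl9 among its leading genes, held Pparg at 2488, 2833, 2267 and 2633. Cluster 20, with Vwf, Eln and Mgp among its leading genes, held 1053, 324 and 906 in the 3 libraries with 50 such nuclei. Cluster 12 was above cluster 20 in each of them. It made up 71.2% of endothelial-like nuclei in BAT sham and 49.7% in BAT surgery. The ratio of BAT surgery to BAT sham was 0.706 (0.648 to 0.768) over the class, a log2 ratio of -0.50, and 0.19 in log2 within cluster 12. In BeAT the ratio was 1.04 (0.939 to 1.14), an interval that holds 1, and its log2 was -0.53 with nuclei classed by their own markers.

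Cebpa, which keeps the mature adipocyte state, was lower in the adipocyte-like nuclei of both surgery libraries. It stood at 169.6 (165 to 175) in the sham and 75.4 (66.7 to 85) in the surgery library of BAT, and 134 (129.5 to 139.6) and 70.9 (63.1 to 79.4) in those of BeAT. Both surgery libraries lay below both shams, and no interval of one kind overlapped one of the other. A gene was called where the pair of libraries held at least 50 of its UMIs, the levels differed at least 2-fold and the interval of the ratio excluded 1. By this rule Cebpa was lower in BAT, 2.25-fold (1.99 to 2.55), and in BeAT it lay just outside the limit, 1.90-fold (1.68 to 2.14) lower. In BeAT both adipocyte clusters had less of it: cluster 1 held 138 in the sham and 68.2 in the surgery library, and cluster 2 held 123 and 71.6. Cebpa is a short gene, spanning 2.64 kb. With the trend of all genes' ratios over gene span taken off, its log2 ratio in BAT moved from -1.17 to -0.43, which ended the call. In BeAT it moved from -0.92 to 0.46, the other direction.

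The early factors Cebpb and Cebpd were low in adipocyte-like nuclei, and Cebpd was higher in BeAT surgery. Cebpd stood at 12.7 (11.3 to 14.1) in the sham and 15 (11.3 to 19.5) in the surgery library of BAT, and 18.5 (16.6 to 20.4) and 53.6 (46.9 to 61.1) in those of BeAT. BeAT surgery stood alone above the other libraries, 2.91-fold (2.45 to 3.43) over its sham. In cluster 1 the level went from 12.6 to 37.5 and in cluster 2 from 35.7 to 58.1. Cluster 2 made up 17.7% of adipocyte-like nuclei in the BeAT sham library and 68.5% in BeAT surgery. The BAT ratio for Cebpd was 1.18 (0.869 to 1.58), an interval that holds 1. Cebpb stood at 34.8 (32.6 to 37.2), 27.5 (22.3 to 33.4), 47.5 (44.5 to 50.5) and 75.8 (67.8 to 84.6). Its ratio to the sham was 0.789 (0.634 to 0.972) in BAT and 1.60 (1.40 to 1.81) in BeAT, neither of them called. With the span trend taken off, its log2 ratios were 0.40 in BAT, the other direction, and 2.06 in BeAT.

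Klf15, a late factor that responds to glucocorticoids and fasting, had its highest level of the 5 classes in adipocyte-like nuclei. It stood at 58 (55.1 to 61.1) in the sham and 33 (27.3 to 39.5) in the surgery library of BAT, and 51.4 (48.3 to 54.6) and 33.3 (28 to 39.3) in those of BeAT. Both surgery libraries lay below both shams with no overlap of intervals, 1.76-fold (1.46 to 2.14) in BAT and 1.54-fold (1.29 to 1.85) in BeAT, short of the 2-fold limit. In the surgery libraries the interval overlapped that of the class with the second-highest level. In progenitor-, endothelial- and macrophage-like nuclei it did not exceed 14.1 in any library.

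Zfp423 was higher in the adipocyte-like nuclei of both surgery libraries. It stood at 336 (329 to 343) in the sham and 593 (568 to 619) in the surgery library of BAT, and 266 (259 to 273) and 493 (472 to 515) in those of BeAT. The surgery libraries lay above both shams with no overlap, 1.76-fold (1.68 to 1.85) and 1.86-fold (1.76 to 1.95) over their own, below the 2-fold limit. In BeAT, cluster 1 went from 245 to 499 and cluster 2 from 326 to 492. A Zfp423 UMI was found in 72.2, 85.4, 56.2 and 89.5% of adipocyte-like nuclei and, with nuclei thinned to 1000 UMIs, in 26.8, 43.2, 21.5 and 37.8%. T or NK-like nuclei had one in 2.33, 0.725, 2.66 and 1.53%. Where each nucleus was classed by its own markers in place of clusters, the log2 ratio in BAT moved from 0.82 to 0.27. With nuclei thinned, the log2 ratio in BeAT was 1.01, past the limit. Over 10 settings the log2 ratio ran from 0.27 to 1.13 in BAT and from 0.40 to 1.03 in BeAT.

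Of the EBF genes in adipocyte-like nuclei, Ebf1 and Ebf2 were modestly higher in both surgery libraries and Ebf3 went opposite ways. Ebf1 stood at 3509.7 (3487 to 3533), 4290.4 (4223 to 4359), 3087 (3063 to 3111) and 4169.7 (4108 to 4232), 1.22-fold (1.20 to 1.24) and 1.35-fold (1.33 to 1.37) over the sham. Ebf2 stood at 409 (401 to 417), 532 (508 to 556), 471 (462 to 480.3) and 615 (591 to 639), 1.30-fold (1.24 to 1.37) and 1.31-fold (1.25 to 1.36) over the sham. Both turned to the other direction in BAT with nuclei classed by their own markers, at log2 ratios of -0.33 and -0.28. Ebf1 turned to -0.055 in BeAT with the span trend taken off. Ebf3 stood at 256 (249.5 to 262), 129 (118 to 142), 245 (239 to 252) and 376 (358 to 395). Its shams nearly met, BAT surgery was lowest, 1.98-fold (1.80 to 2.18) below its sham and just outside the limit, and BeAT surgery was highest, 1.53-fold (1.45 to 1.62) above. Without cluster 18 the log2 ratio of Ebf3 in BAT moved from -0.98 to -0.33. Over 10 settings it ran from -1.59, past the limit, to -0.12.

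Ebf2 differed between the adipocyte clusters in the 3 libraries with at least 50 nuclei of each. Cluster 1 against cluster 2 had 538 against 274 in BAT sham, 530.5 against 296 in BeAT sham and 777 against 555 in BeAT surgery. Ebf1 had the opposite order, 3004 against 4044, 2756 against 4059 and 4015 against 4202, wide in the shams and narrow in BeAT surgery. All 3 EBF genes had UMIs in the same nucleus in 45.9, 32.5, 37.9 and 67.7% of adipocyte-like nuclei, shares that move with depth.

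Per kb of gene span, a rough scale for nuclear RNA with introns, Cebpa and Pparg led in adipocyte-like nuclei of the shams. Cebpa had 64.4 CPM per kb in BAT sham and 51 in BeAT sham, and Pparg had 42.3 and 40.9. In BAT surgery Pparg led with 37.4 ahead of Cebpa with 28.6. In BeAT surgery Cebpb led with 50.4 ahead of Pparg with 43.6. Over the 4 libraries Ebf1 had 7.90 to 11 per kb, Klf15 2.61 to 4.58, Ebf2 2.07 to 3.11, Ebf3 1.07 to 3.12 and Zfp423 0.892 to 1.99.

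In adipocyte-like nuclei 1 of the 9 factors was called in BAT (Cebpa, lower) and 1 of 9 in BeAT (Cebpd, higher). Over all genes 17.3% were called in BAT and 19.8% in BeAT, so the share of factors called was near or below the background. Between the shams 0 of 9 were called, beside 2.86% of all genes. Without cluster 18 the BAT log2 ratios were -1.78 for Cebpa, 1.28 for Cebpd, 0.96 for Zfp423 and 0.053 for Ebf2. These rest on the 34 and 17 nuclei of BAT surgery left in clusters 1 and 2 and are given without intervals. The median log2 ratio of the 9 was -0.18 in BAT and 0.43 in BeAT, beside -0.07 and -0.09 over all genes.

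**Figure D2:**
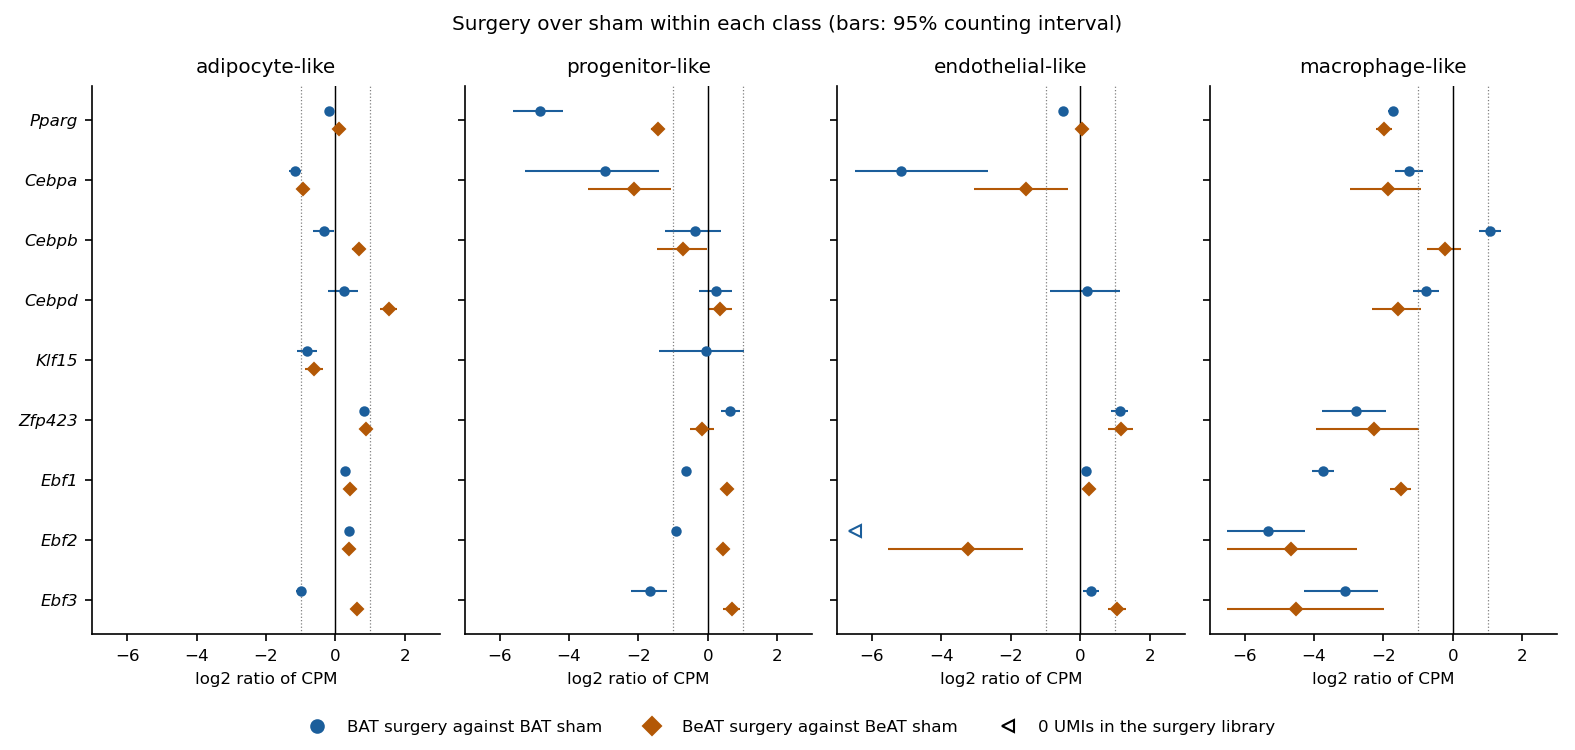
Log2 ratio of surgery over sham for each factor with at least 50 UMIs in the pair, in 4 classes, with bars for the 95% counting interval, clipped at the left edge. Dotted lines mark 2-fold, and the open triangle is Ebf2 with 0 UMIs in endothelial-like nuclei of BAT surgery. In adipocyte-like nuclei Cebpa and Klf15 lay left of 0 and Zfp423, Ebf1 and Ebf2 right of 0 in both pairs; with other processing some of these directions changed, as given in the text.

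Ebf2 had its highest level in progenitor-like nuclei, the Pdgfra-expressing stromal cells from which adipocytes arise. It stood there at 2368 (2333 to 2404) in the sham and 1255 (1160.1 to 1356) in the surgery library of BAT, and 1775 (1729 to 1823) and 2402 (2280.4 to 2529) in those of BeAT. Each value was above that of adipocyte-like nuclei of the same library, from 2.36-fold in BAT surgery to 5.79-fold in BAT sham. An Ebf2 UMI was found in 93.8, 41.7, 86.4 and 90.3% of progenitor-like nuclei, at median depths of 2816 to 3764, and in 3.72, 0.725, 4.79 and 2.04% of T or NK-like nuclei. Thinned to 1000 UMIs the progenitor shares were 81.7, 34.9, 73.8 and 78.8%. BAT surgery was lowest, 1.89-fold (1.74 to 2.04) below its sham, and its value turned on which clusters counted. Cluster 38 had Ebf2 at 19.9, against 1495 to 2816 in clusters 6, 10 and 24 of the other libraries. Without cluster 38 the log2 ratio in BAT turned from -0.92 to 0.34, on 6, 46 and 15 nuclei of BAT surgery in clusters 6, 10 and 24. Cluster 21, nearly all from BAT surgery and left unnamed because a marker of another class leads it (Wt1), had Ebf2 at 1319.8. In BeAT Ebf2 was 1.35-fold (1.28 to 1.43) over its sham.

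Cluster 38 differed from the other progenitor clusters in the rest of the family too. It held Ebf1 at 1595 against 2499 to 6290.1 and Ebf3 at 33.2 against 70.8 to 343. Its Pparg level was 3.32 against 157 to 1678, and its Zfp423 level 329 against 59.6 to 187. Its leading genes were C7, Lama2 and Meg3, and 9 progenitor markers counted for its name.

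Pparg and Cebpa were lower in the progenitor-like nuclei of both surgery libraries, where adipocyte RNA was lower as well. Pparg stood at 1005 (982 to 1028) in the sham and 35 (20.7 to 55.3) in the surgery library of BAT, and 1131 (1094 to 1169) and 415 (366 to 470.1) in those of BeAT, 28.7-fold (18.2 to 48.5) lower in BAT on 18 UMIs and 2.72-fold (2.39 to 3.11) lower in BeAT. The BAT surgery level was at that of T or NK-like nuclei, 40.9. In each other library Pparg was above its level in that class. Adipoq stood at 206, 7.77, 284 and 29.7 in the progenitor-like nuclei, and the 11 adipocyte markers summed to 5119, 1006, 4515 and 3296. The adipocyte level of Pparg scaled down by the ratio of Adipoq between the classes would give 1963, 116, 1837 and 571, above the measured level in each library. This scaling assumes that both genes leak in the same proportion. In T or NK-like nuclei of BAT sham Adipoq was higher than in progenitor-like nuclei and Pparg lower, as given above. So the scaled levels do not tell the part of free RNA, which was not tested. Within BeAT, Pparg in cluster 6 went from 1022 to 609.7. In cluster 10, which has the early precursor gene Pi16 among its leading genes, it went from 1678 to 157. In cluster 6 alone the log2 ratio was -0.75, short of the 2-fold limit. Cebpa stood at 45.8, 5.83, 50.4 and 11.5, with 3 and 7 UMIs in the surgery libraries, 7.85-fold (2.66 to 38.3) and 4.37-fold (2.07 to 11) below the shams. Without cluster 38 the BAT log2 ratio of Pparg was -3.66, against -4.85 over the class. With free RNA taken off in proportion to Adipoq, the log2 ratio of Cebpa in BeAT turned from -2.13 to 0.08.

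Ebf1 and Ebf3 in progenitor-like nuclei were lower in BAT surgery and higher in BeAT surgery. Ebf1 stood at 4581 (4532 to 4631), 2943 (2797 to 3095), 3646 (3579 to 3714) and 5388 (5205 to 5576), with ratios of 0.642 (0.610 to 0.676) in BAT and 1.48 (1.42 to 1.54) in BeAT. Ebf3 stood at 210.5 (200.01 to 221), 66.1 (45.7 to 92.3), 192 (177 to 208) and 308 (266 to 356), 3.19-fold (2.27 to 4.62) lower in BAT and 1.61-fold (1.36 to 1.90) higher in BeAT. The 6 B cell markers summed to 21.7, 146, 16.7 and 323 in these nuclei and the 8 T or NK markers to 17.7, 27.2, 24.1 and 321, and their part in the difference was not tested. Without cluster 38 the BAT log2 ratios were 0.08 for Ebf1 and -0.91 for Ebf3, and Ebf3 was no longer called.

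Cebpd had its highest level of the 5 classes in progenitor-like nuclei of every library, 66.1 (60.3 to 72.3), 77.7 (55.5 to 106), 117 (105 to 129.5) and 148 (119 to 182). Its ratios to the sham, 1.18 (0.829 to 1.63) and 1.27 (0.997 to 1.60), had intervals that hold 1. Zfp423 stood at 155 (146 to 164), 243 (202 to 289), 149.9 (137 to 164) and 134 (106 to 166) and was not called in either pair. Its ratio of 1.57 (1.29 to 1.88) in BAT turned to a log2 ratio of -0.35 without cluster 38. Cebpb stood at 37.6, 29.1, 51 and 31.3 and Klf15 at 14.1, 13.6, 11.6 and 8.24, and neither was called. Without cluster 38 the BAT log2 ratio of Cebpb moved from -0.37 to -1.42.

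Of the factors in progenitor-like nuclei, 3 of 9 were called in BAT (Pparg, Cebpa and Ebf3, lower) and 2 of 8 in BeAT (Pparg and Cebpa, lower), beside 16.9% and 22.7% of all genes. Between the shams 0 of 9 were called, beside 3.43%. With the unnamed clusters that carry progenitor markers counted in, 5 were called in BAT. For this and every other changed setting, here and below, no share of all genes is given beside the count.

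**Figure D3:**
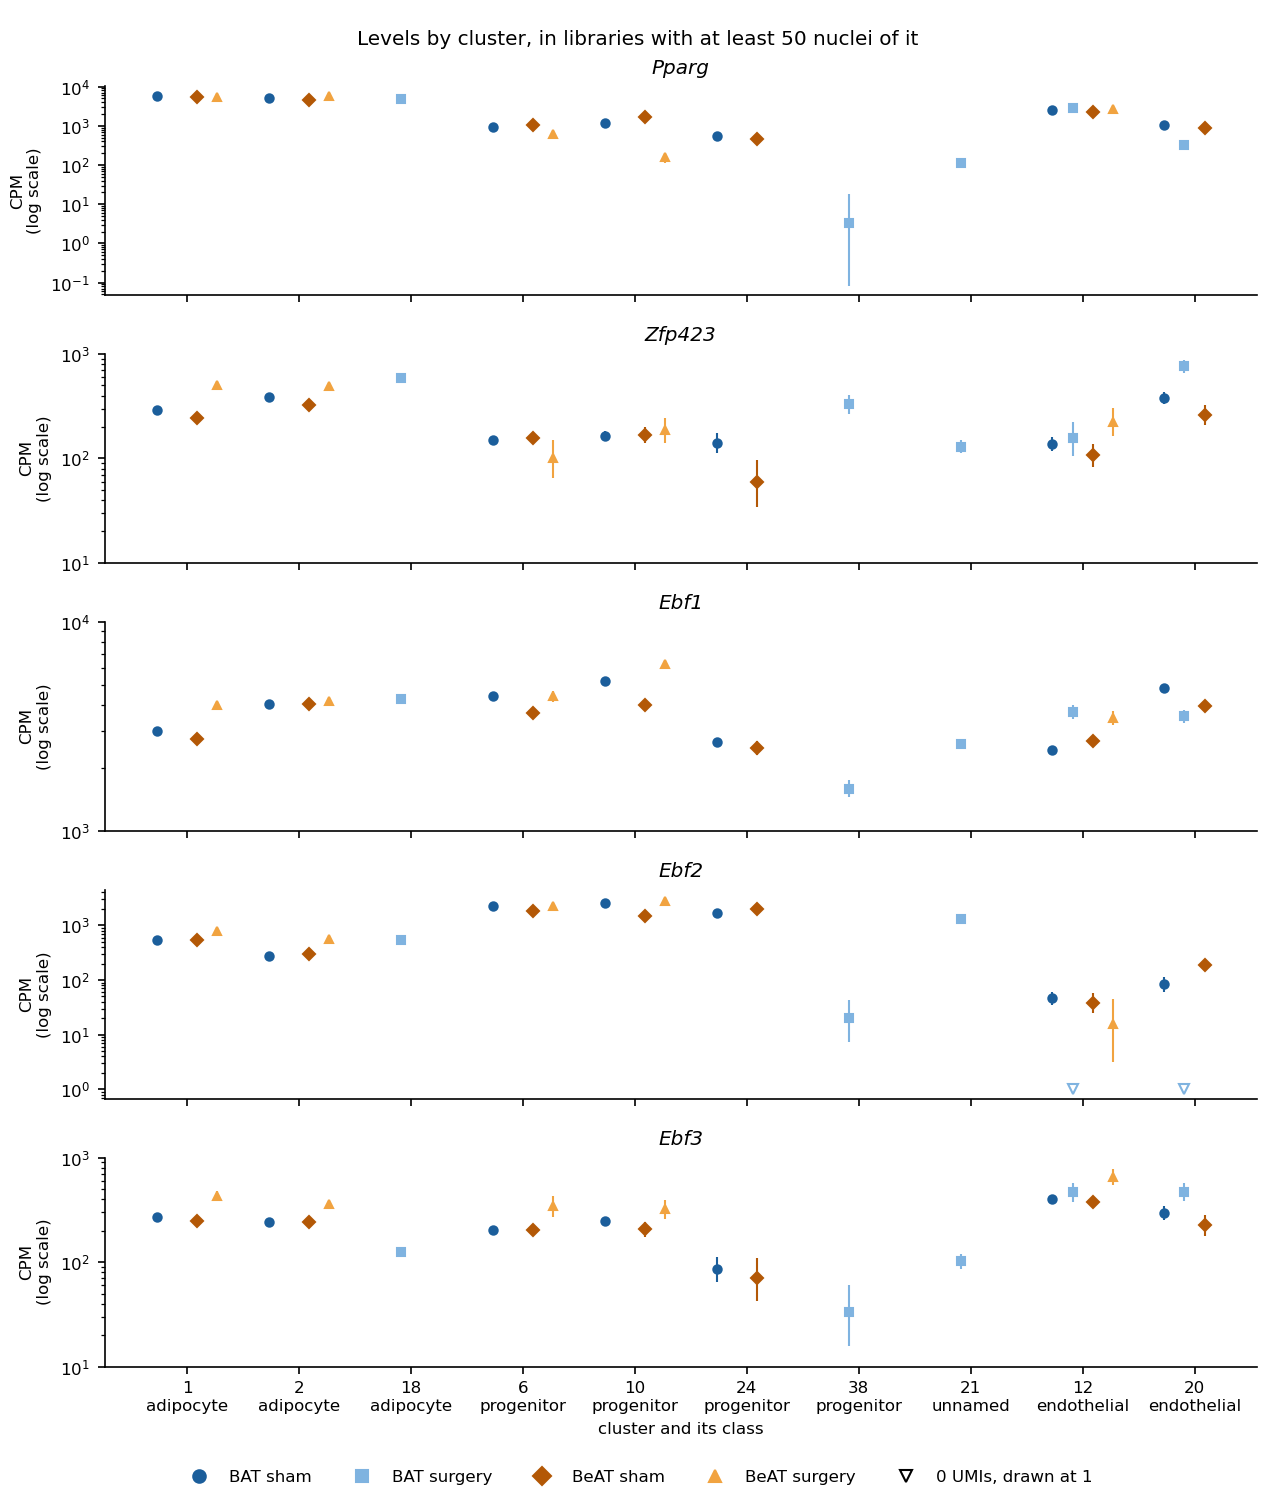
Levels of 5 factors (CPM, log axis) by cluster, with 1 point per library that held at least 50 nuclei of the cluster and bars for the 95% counting interval. Open triangles had 0 UMIs and are drawn at 1. Ebf2 stood at 19.9 in cluster 38 against 1495 to 2816 in clusters 6, 10 and 24, and Pparg was higher in endothelial cluster 12 than in cluster 20.

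Endothelial-like nuclei had the highest Ebf3 level of the 5 classes in all libraries, and Zfp423 was higher there in both surgery libraries. Ebf3 stood at 358 (331 to 387) in the sham and 444 (385 to 509) in the surgery library of BAT, and 306 (273 to 342) and 638 (554 to 733) in those of BeAT, and Zfp423 at 212 (191 to 234), 465 (405 to 532), 157 (134 to 184) and 352 (290.0 to 424). Zfp423 lay above both shams in both surgery libraries, 2.20-fold (1.85 to 2.60) in BAT and 2.24-fold (1.74 to 2.87) in BeAT, and Ebf3 was 2.09-fold (1.74 to 2.50) higher in BeAT and 1.24-fold (1.06 to 1.45) in BAT, the last not called. With median-of-ratios scaling the log2 ratios of the 3 calls were 0.85, 0.67 and 0.56, and none was still called. Zfp423 was higher in cluster 20 than in cluster 12: 381 against 138 in BAT sham, 762 against 158 in BAT surgery and 261 against 107 in BeAT sham. Cluster 20 took 26.7% of endothelial-like nuclei in BAT sham and 44.7% in BAT surgery. Within cluster 12 the log2 ratio of Zfp423 in BAT was 0.20, against 1.14 over the class.

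Ebf1 in endothelial-like nuclei was below its level in adipocyte-like nuclei in each library, at 3102 (3021 to 3184), 3465 (3298 to 3639), 2997 (2891 to 3107) and 3547 (3343 to 3761), with ratios of 1.12 (1.06 to 1.18) and 1.18 (1.10 to 1.27). Neither direction was stable: with median-of-ratios scaling the log2 ratios were -0.12 and -0.25, and with the span trend taken off -0.20 and -0.31. With free RNA taken off the BAT value was 2.59. An Ebf1 UMI was found in 88.8, 93.1, 85.2 and 94.8% of these nuclei, at median depths of 1699 to 2483, and in 14.4, 2.90, 10.1 and 18.8% of T or NK-like nuclei. Thinned to 1000 UMIs the shares were 79.5 to 86.9% and 0.855 to 10.2%.

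Ebf2 and Cebpa were low in endothelial-like nuclei and lower in both surgery libraries. Ebf2 stood at 58.5, 0, 88.7 and 9.43, beside 25.4, 4.09, 51.5 and 17.2 in T or NK-like nuclei. It had 0 UMIs in BAT surgery, at least 9.05-fold lower when set at a floor of 3 UMIs, while the 95% interval of the ratio began at 7.23-fold lower. It was 9.40-fold (3.12 to 46.5) lower in BeAT surgery on 3 UMIs. Cebpa stood at 77.5, 2.16, 55.8 and 18.9, beside 39.2, 8.18, 25.8 and 6.19 in T or NK-like nuclei, 36-fold (6.35 to 1430.2) lower in BAT on 1 UMI and 2.96-fold (1.28 to 8.40) lower in BeAT on 6. Adipoq stood at 402, 28, 446 and 47.2 in these nuclei. With the span trend taken off, the log2 ratio of Cebpa in BeAT turned to 0.24. Cebpb stood at 13.9, 17.2, 24.9 and 59.8, Cebpd at 22.9, 25.9, 36.9 and 31.4 and Klf15 at 11.1, 4.31, 7.97 and 12.6, on few UMIs and with no call.

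In endothelial-like nuclei 3 of 7 measured factors were called in BAT (Zfp423 higher, Cebpa and Ebf2 lower) and 4 of 6 in BeAT (Zfp423 and Ebf3 higher, Cebpa and Ebf2 lower), beside 17.8% and 23.5% of all genes. Between the shams 0 of 8 were called, beside 3.56%. With nuclei thinned the counts were 1 in BAT and 0 in BeAT.

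Macrophage-like nuclei had low levels of most factors, and 6 in BAT and 7 in BeAT were lower in the surgery library, as was Adipoq. Pparg, which some tissue macrophages express, stood at 628 (605 to 651) in the sham and 190.0 (175 to 206) in the surgery library of BAT, and 908 (867 to 951) and 229 (197 to 265) in those of BeAT, 3.31-fold (3.03 to 3.62) lower in BAT and 3.96-fold (3.40 to 4.63) in BeAT. T or NK-like nuclei had it at 602, 40.9, 399 and 207, so the intervals were apart in BAT surgery and BeAT sham. Adipoq stood at 172, 10.9, 223 and 17.4 in the macrophage-like nuclei, and the 11 adipocyte markers summed to 2763, 999, 2710.0 and 829. Ebf1 stood at 399, 30.1, 371 and 131, beside 323, 32.7, 219 and 309 in T or NK-like nuclei. Zfp423 stood at 26.3, 3.84, 29.9 and 6.20, Ebf2 at 89.8, 2.24, 62.3 and 2.48 and Ebf3 at 25, 2.88, 28.4 and 1.24. Cluster 23, in which 9 progenitor markers counted beside 8 of macrophages, made up 15.3% of macrophage-like nuclei in BAT sham and 20.2% in BeAT sham. In the surgery libraries it made up 0.208% and 1.83%. Its Ebf1 level was 1123 in BAT sham and 838 in BeAT sham. In cluster 4, the largest, Ebf1 was 146, 16.2, 82.3 and 203, so the log2 ratio in BeAT was 1.30 there and -1.50 over the class.

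Cebpb, which macrophages use in their inflammatory programme, was the factor called higher in this class. It stood at 32.8 (27.8 to 38.5) in the sham and 68.8 (59.9 to 78.6) in the surgery library of BAT, and 71.4 (60.1 to 84.3) and 60.7 (44.9 to 80.3) in those of BeAT. BAT sham stood alone below the others, 2.09-fold (1.69 to 2.60) below BAT surgery and 2.18-fold (1.72 to 2.75) below BeAT sham. The ratio in BeAT was 0.850 (0.601 to 1.18). Cluster 13, with Saa3 among its leading genes, had more of it than cluster 4, with F13a1 and Mrc1, in each library: 65.3 against 18.8, 125 against 26.2, 89.8 against 25.1 and 65 against 37. Cluster 13 made up 11.4, 42.9, 34.4 and 65.3% of the class. Within cluster 4 the log2 ratio of Cebpb in BAT was 0.48, short of the limit, against 1.07 over the class.

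Cebpa stood at 55, 23, 45.1 and 12.4 in macrophage-like nuclei, 2.39-fold (1.83 to 3.15) lower in BAT and 3.64-fold (1.89 to 7.85) in BeAT. Cebpd stood at 45.9, 26.9, 78 and 26, 1.71-fold (1.32 to 2.23) lower in BAT, which was not called, and 3.0-fold (1.89 to 4.98) lower in BeAT. Klf15 stood at 8.27, 1.28, 8.11 and 1.24, with too few UMIs for a ratio in either surgery pair. Of 8 measured factors 7 were called in BAT (Cebpb higher, 6 lower) and 7 in BeAT (all lower), beside 16.8% and 24.3% of all genes. Between the shams 1 of 9 was called, Cebpb, beside 5%. The BeAT count fell to 1 with nuclei thinned to 1000 UMIs, to 1 with free RNA taken off and to 2 with doublets kept. The BAT count fell to 3 with free RNA taken off, within the largest cluster and with nuclei classed by their own markers.

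**Figure D4:**
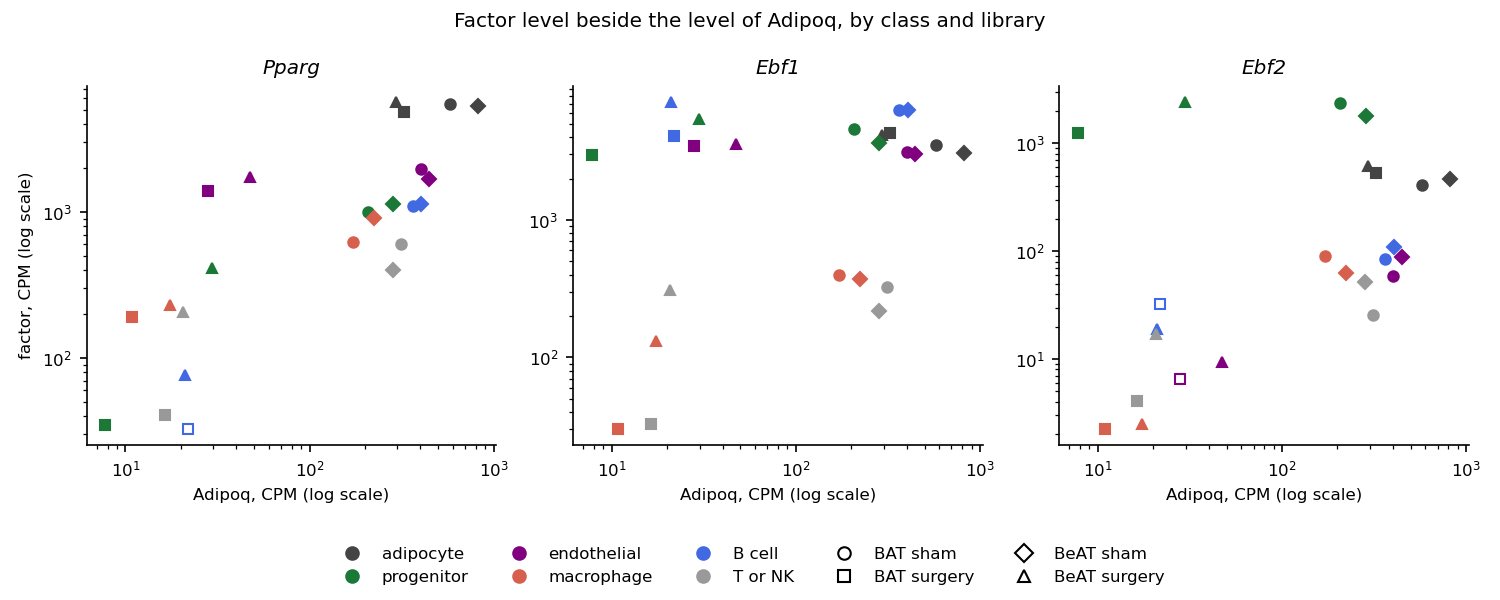
Level of Pparg, Ebf1 and Ebf2 against that of Adipoq (both in CPM, log axes), with 1 point per class (colour) and library (shape). Open points had 0 UMIs of the factor and are drawn at the level of 3 UMIs. Ebf2 in progenitor-like nuclei stood at 2368, 1255, 1775 and 2402 while Adipoq in the same nuclei stood at 206, 7.77, 284 and 29.7.

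B cell-like nuclei had the highest Ebf1 level of the 5 classes in all libraries but BAT surgery. Ebf1 stood at 6264 (5857 to 6691) in the 63 nuclei of BAT sham, 4064 (3663 to 4498) in 38 of BAT surgery, 6273 (5742 to 6841) in 46 of BeAT sham and 7169.9 (7096 to 7244) in 1924 of BeAT surgery. In BAT surgery the interval overlapped that of adipocyte-like nuclei. Neither surgery pair had 50 nuclei on both sides, so no ratio was taken. An Ebf1 UMI was found in 96.8, 73.7, 95.7 and 99.1% of B cell-like nuclei, at median depths of 1364 to 2166, and in 14.4, 2.90, 10.1 and 18.8% of T or NK-like nuclei. Thinned to 1000 UMIs, the shares in BeAT surgery were 98.3% and 9.99%. In BeAT surgery cluster 25, which has the proliferation genes Mki67 and Top2a among its leading genes, had Ebf1 at 6413 and cluster 5 at 7417.

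In BeAT surgery, the library with most B cell-like nuclei, the other EBF genes and the adipogenic factors were low in them. Ebf2 stood at 18.9 and Ebf3 at 11.1, beside 17.2 and 15.8 in T or NK-like nuclei. In the shams Pparg was above its level in T or NK-like nuclei and did not differ from that of progenitor-like nuclei beyond the intervals. It stood at 1095, 0, 1139 and 76.9, beside Adipoq at 363, 21.7, 404 and 21.1, and the interval of its 0 UMIs in BAT surgery reached 40.1. In BeAT surgery Cebpa, Cebpb, Cebpd, Klf15 and Zfp423 stood at 6.36, 7.75, 3.78, 0.795 and 12.7.

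The classes that held a factor's UMIs differed between libraries for Ebf1, Ebf2, Klf15 and Cebpb, and hardly for Pparg, given above. Adipocyte-like nuclei held 62.6, 59.2, 70.9 and 27.6% of Ebf1 UMIs and B cell-like nuclei 0.622, 1.43, 0.571 and 56.5%, so in BeAT surgery most came from B cell-like nuclei. Of Ebf2 UMIs progenitor-like nuclei held 56.7, 12.8, 31.7 and 31.9% and adipocyte-like nuclei 34.2, 37.9, 55.7 and 57%. Unnamed clusters held 6.06, 47.8, 10.8 and 5.87%, the largest share in BAT surgery. They include cluster 21, which carries progenitor markers, so the low progenitor share there depends on which clusters were named. Epithelial-like nuclei of BAT surgery held 69.1% of that library's Klf15 UMIs, 64% of its Cebpb, 36.3% of its Zfp423, 32.5% of its Cebpd and 19.7% of its Cebpa. In BAT surgery that class held 38924562 UMIs of all genes, of 60409801 in the library before filters and removal of doublets. It thus held most of the library's UMIs, so these shares do not by themselves show a higher level in it. In the other libraries epithelial-like nuclei held at most 1.27% of any of these.

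**Figure D5:**
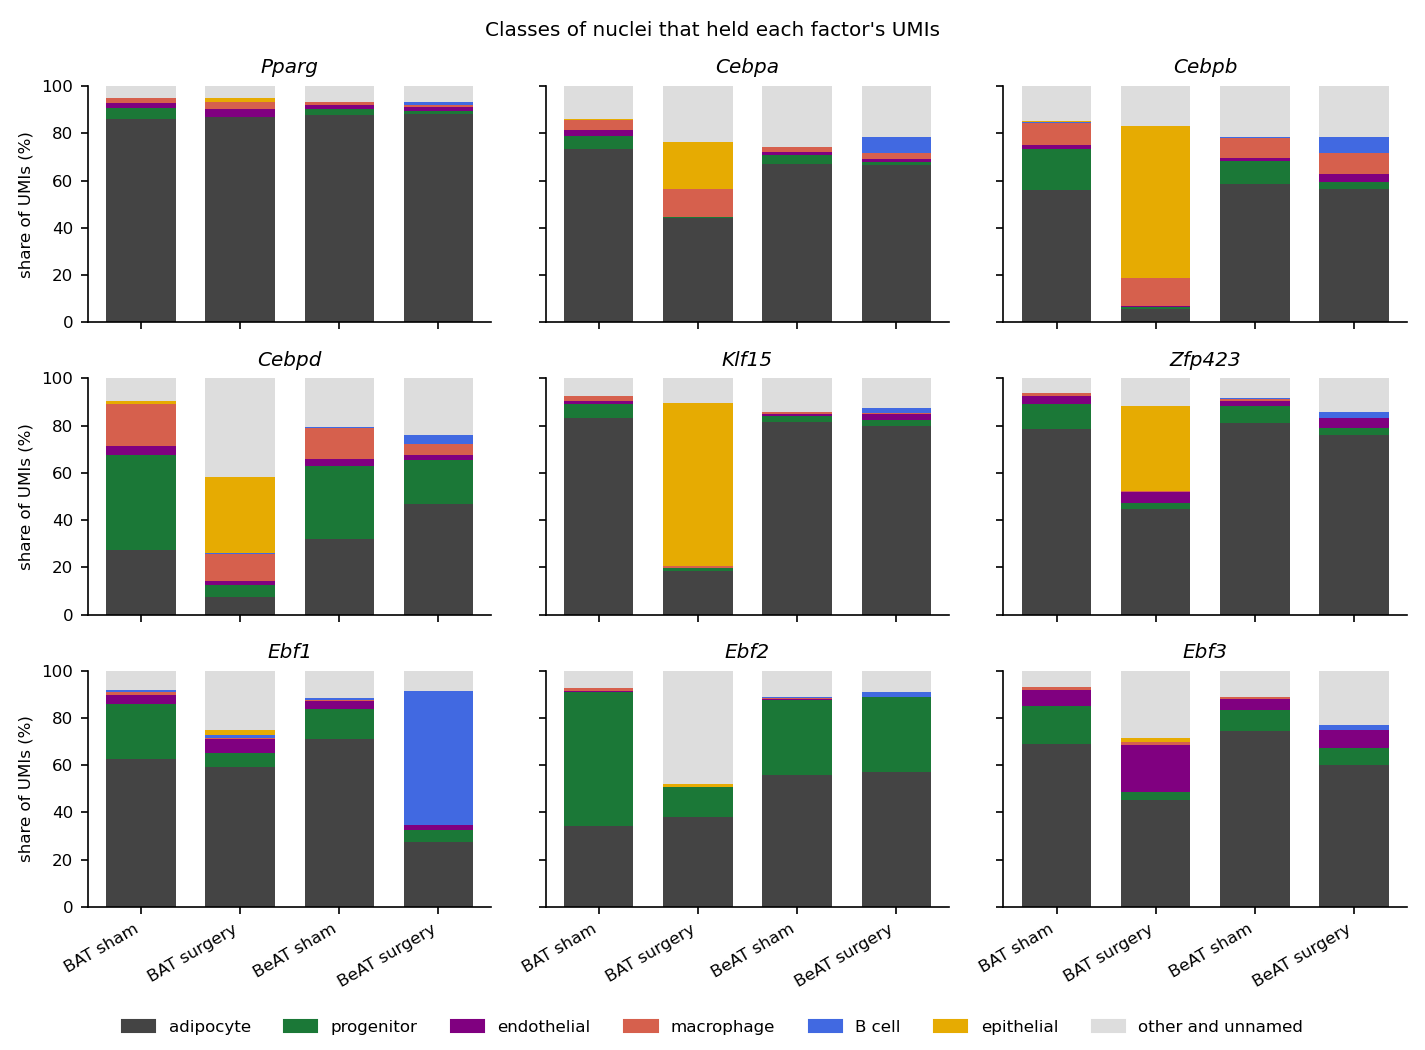
Share of each factor's UMIs (%) in each class of nuclei, with 1 stacked bar per library. Pparg lay in adipocyte-like nuclei for 86.2 to 88.3% of UMIs, and B cell-like nuclei held 56.5% of Ebf1 in BeAT surgery. Epithelial-like nuclei held 69.1% of Klf15 in BAT surgery, where they also held most UMIs of all genes.

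The genes around these factors were read in adipocyte-like nuclei. Of the adipocyte genes with PPARG or C/EBP sites, 2 of 24 measured were called higher and 9 lower in BAT, with a median log2 ratio of -0.64. In BeAT 1 of 24 measured were called higher and 7 lower, with a median of -0.21. Acaca, the acetyl-CoA carboxylase gene of fatty acid synthesis, was 4.72-fold (4.64 to 4.79) higher in BAT, from 1481 to 6985, and 4.81-fold (4.73 to 4.88) higher in BeAT. Lpin1, which makes diacylglycerol, was 2.28-fold (2.19 to 2.38) higher in BAT. Lower in BAT were Cidea of the lipid droplet, 13.5-fold (6.80 to 31.3), Pck1 of glyceroneogenesis, 5.16-fold (4.78 to 5.58), and the fatty acid binding protein gene Fabp5, 4.72-fold (3.12 to 7.49). Lower in BeAT were Cfd, which encodes adipsin, 6.94-fold (6.65 to 7.24), Fabp5, 4.90-fold (3.67 to 6.68), and the triglyceride lipase gene Pnpla2, 2.73-fold (2.47 to 3.03). The list thus had genes on both sides. These counts stand beside 17.3% of all genes called in BAT and 19.8% in BeAT, as do those of the other lists in this class, several of which lie near that share. In BAT the list values of this class rest mostly on cluster 18, which has Acaca among its leading genes. They are not given without it.

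Of the partners and coregulators of PPARG, 2 of 20 measured were called higher and 2 lower in BAT, and 2 of 20 measured were called higher and 0 lower in BeAT, with medians of 0.38 and 0.40. The heterodimer partner Rxrg was higher in both, 2.49-fold (1.99 to 3.10) and 3.21-fold (2.63 to 3.90), and Rxra was 2.21-fold (1.81 to 2.69) higher in BAT. Tbl1xr1, a corepressor subunit gene, was 2.08-fold (1.91 to 2.26) higher in BeAT. The thermogenic coregulators Prdm16 and Ppargc1a were 6.78-fold (5.71 to 8.12) and 2.32-fold (2.01 to 2.71) lower in BAT. Of other factors that promote adipogenesis, 0 of 16 measured were called higher and 2 lower in BAT, namely Klf6, 4.11-fold (3.40 to 5.03), and Klf4, 2.77-fold (1.31 to 7.03), on 7 UMIs in BAT surgery. In BeAT 0 of 16 measured were called higher and 1 lower, Xbp1, by 2.60-fold (2.24 to 3.02). The medians were 0.00 and 0.10.

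Of factors that hold adipogenesis back, 2 of 17 measured were called higher and 3 lower in BAT, and 3 of 16 measured were called higher and 1 lower in BeAT, with medians of -0.01 and -0.01. Foxo1, the forkhead factor restrained by insulin, was 2.17-fold (2.07 to 2.27) and 2.69-fold (2.57 to 2.81) higher. Irf4 was 2.07-fold (1.24 to 3.32) and 4.60-fold (3.48 to 6.07) higher, and Zfp521, an antagonist of EBF1 and ZFP423, was 2.99-fold (2.52 to 3.54) higher in BeAT. The Notch target Hes1 was 8.20-fold (3.94 to 20.5) and 4.09-fold (2.74 to 6.38) lower. In BAT Klf7 was 2.02-fold (1.65 to 2.50) lower, and Ccn5, on 1 UMI, 14-fold (2.45 to 558). Of EBF partners and B lineage factors, 3 of 10 measured were called higher and 0 lower in BAT, and 4 of 10 measured were called higher and 0 lower in BeAT, with medians of 0.35 and 0.86. In BAT they were Foxo1, Irf4 and Ikzf1, a lymphoid factor gene, and in BeAT Zfp521 as well. Foxo1, Irf4 and Zfp521 also belong to the list of factors that hold adipogenesis back, so their calls count in both lists. The EBF list also holds Zfp423 itself, which was not called. Its log2 ratios of 0.82 in BAT and 0.89 in BeAT enter the medians of that list. Ikzf1 was 2.59-fold (2.0 to 3.31) and 3.14-fold (2.42 to 4.05) higher. The 6 B cell markers summed to 36.4, 137, 28.1 and 114 in the adipocyte-like nuclei, higher in both surgery libraries, and their part in Irf4 and Ikzf1 was not tested.

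In progenitor-like nuclei 21 of 23 measured genes with PPARG or C/EBP sites were called lower in BAT and 17 of 22 in BeAT, with 0 higher in both, beside 16.9% and 22.7% of all genes called. They moved with Adipoq, given above, and its part was not tested. Of factors that hold adipogenesis back, 1 of 16 measured were called higher and 4 lower in BAT, and 1 of 16 measured were called higher and 2 lower in BeAT.

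The genes most like each factor in pattern were found by Pearson's r of the log2 level (with 1 added) over 18 sums of a class in a library with at least 50 nuclei, among 13719 genes. The 18 points share libraries and free RNA, so r is a description. The 3 closest were Gm44079 (0.95), Mcam (0.95) and Nudt4 (0.92) for Pparg and Ppp1r1a (0.94), Echs1 (0.93) and Slc7a10 (0.93) for Cebpa. For Klf15 they were Arl4a (0.96), 2310014F06Rik (0.96) and Gnai1 (0.95). The values were lower for Cebpb, with Zfhx3 (0.81), Plekhg3 (0.78) and Snx10 (0.78), and for Cebpd, with Steap3 (0.83), Creb5 (0.82) and Lmna (0.82). The lists of Zfp423, with Tead1 (0.97), Lama4 (0.97) and Yap1 (0.96), and of Ebf3, with Wwtr1 (0.97), Pxdn (0.97) and Npr2 (0.95), held the Hippo pathway genes Tead1, Yap1 and Wwtr1. For Ebf2 they were Vgll3 (0.96), Gli2 (0.96) and Olfml1 (0.95), and for Ebf1 Gm12158 (0.94), Zfp507 (0.92) and Pitpnm2 (0.89). Among the factors themselves Zfp423 and Ebf3 were the closest pair (0.92), and Cebpb and Ebf1 had the lowest value (-0.52). Gm44079 and Gm12158 lie on the opposite strand within Pparg and Ebf1. Whether the counting used strand is not stated in the labels, so reads of both strands may not have been told apart. Genes on the opposite strand also overlap Cebpa (Gm45091), Cebpb (Tmem189), Cebpd (Spidr), Ebf2 (Gm6878, 1700120O09Rik, 4930438E09Rik and Gm10860) and Ebf3 (Gm45278 and Gm10578).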

How the data were processed

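The authors deposited whole-number UMI counts per gene and barcode, with no normalization, for 4 libraries. The submitters' processing notes name Seurat 4.4.0 and the build mm10, and the labels' protocol names a SeekGene kit. The sources used here do not name the aligner or counter. Barcodes with 500 UMIs and 300 genes or more and no more than 10% mitochondrial UMIs were kept, and doublets were removed with scrublet in scanpy 1.11.5 (6% expected). Its automatic calls took 4.28% of BAT sham, 8.16% of BAT surgery and 10.9% of BeAT surgery. In BeAT sham it called 0, so the 6% with the highest scores, 623, were removed instead. Nuclei were clustered on 2000 variable genes, 30 principal components and 15 neighbours (leidenalg 0.10.2, resolution 1) without the 9 factors, and clusters were named from at least 3 markers. Counts were summed per class and library of at least 50 nuclei for ratios. Level intervals are exact Poisson and ratio intervals exact conditional binomial. With 1 library per group no test across libraries was made. On simulated counts for BeAT adipocyte-like nuclei (12473 genes) 98.5% of 200 genes changed 3-fold were called, and 0.27% of unchanged genes. These counts held counting error alone, and the changed genes were drawn from the better counted ones. They check the rule for counting error and not for other differences between libraries. Median-of-ratios scaling would centre log2 ratios -0.11 and -0.08 (adipocyte-like), -0.26 and -0.38 (progenitor-like), -0.28 and -0.50 (endothelial-like) and -0.12 and -0.31 (macrophage-like) in BAT and BeAT. The thinned counts held 1000 UMIs per nucleus.

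The members and lists were chosen with earlier results of these data known. Besides the 9 factors, the genes named are, for each pathway list and surgery pair in adipocyte-like nuclei, the 3 called genes of largest log2 ratio in each direction, the 3 genes most like each factor among those with at least 200 UMIs, and Adipoq, Cd79a, Gpx5 and Ucp1. Cd79a, a B cell gene, stood at 0.317, 0.277, 0.291 and 2.84 in adipocyte-like nuclei. Alternatives were another scaling, a 1.5-fold limit, no minimum of UMIs, nuclei above 2000 UMIs, thinning, doublets kept, classing by markers, free RNA or the span trend taken off, the largest shared cluster, the unnamed progenitor-marker clusters added and the factors allowed among the clustering genes. Free RNA was taken off as the library profile scaled to Adipoq, which can take off too much or too little of another gene. Forcing the factors in and leaving out 1-library clusters were chosen after seeing the data.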

Additional observations from a re-analysis of the deposited data

Results flagged for a closer look

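In 6 of the 31 cases measured in both pairs the intervals of the BAT and BeAT ratios lay on opposite sides of 1. The same count was not made over all genes, so it does not set these factors apart. Where a gene had many UMIs, small differences sufficed, as with ratios of 0.885 and 1.07 for Pparg in adipocyte-like nuclei. The values below are the log2 ratio in BAT minus that in BeAT, and the difference was not tested, since each group is 1 library. In adipocyte-like nuclei it was -0.27 for Pparg, -1.02 for Cebpb and -1.60 for Ebf3. In progenitor-like nuclei it was -1.20 for Ebf1, -1.35 for Ebf2 and -2.36 for Ebf3. In all of them the factor was lower in BAT surgery and higher in BeAT surgery than in its sham. The BeAT ratio of Pparg and the BAT ratio of Cebpb in adipocyte-like nuclei turned direction with the span trend taken off. Without cluster 18 the BAT ratio of Pparg turned direction, and without cluster 38 those of Ebf1 and Ebf2 in progenitor-like nuclei did.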

How the results depend on the processing

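The share of all genes called is given for the reported rule alone, so the counts here have none beside them. The count of factors called moved by more than 1.5 times under these settings. With median-of-ratios scaling it was 2 in BAT and 2 in BeAT in adipocyte-like nuclei (1 and 1 as reported) and 2 in BeAT in endothelial-like nuclei (4). With a 1.5-fold limit it was 4 and 6 in adipocyte-like nuclei, 6 and 4 in progenitor-like nuclei (3 and 2), and between the shams 1 in progenitor-like, 2 in endothelial-like and 2 in macrophage-like nuclei (0, 0 and 1). With nuclei thinned to 1000 UMIs it was 2 in BeAT in adipocyte-like, 1 in BeAT in progenitor-like, 1 in BAT (3) and 0 in BeAT in endothelial-like, and 1 in BeAT (7) and 2 between the shams in macrophage-like nuclei. With nuclei classed by their own markers it was 3 in BAT in adipocyte-like, 1 in BeAT in progenitor-like, 1 between the shams in endothelial-like, and 3, 2 and 3 in BAT, BeAT and between the shams in macrophage-like nuclei (7, 7 and 1). With free RNA taken off it was 1 in BeAT in progenitor-like, 2 between the shams in endothelial-like, and 3 in BAT and 1 in BeAT in macrophage-like nuclei. With the span trend taken off it was 2 in BeAT in adipocyte-like, 1 in BeAT and 1 between the shams in endothelial-like, and 0 between the shams in macrophage-like nuclei. In the largest shared cluster it was 2 in BAT and 3 in BeAT in adipocyte-like, 1 in BeAT in progenitor-like, 1 in BeAT in endothelial-like, and 3, 2 and 0 in macrophage-like nuclei. With doublets kept it was 2 in BeAT and 2 between the shams in macrophage-like nuclei. With unnamed progenitor-marker clusters added it was 5 in BAT and 1 between the shams. With nuclei thinned some counts fell and others rose, and the cause of the changes was not tested for any setting. No minimum of UMIs, nuclei above 2000 UMIs, factors allowed or forced among the clustering genes and 1-library clusters left out moved no count by more than 1.5 times; forcing them gave no value for endothelial-like nuclei in BeAT.

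These called ratios changed sign (log2). Cebpa was 0.080 in progenitor-like nuclei in BeAT and 1.18 in macrophage-like nuclei in BAT with free RNA taken off, 0.24 in endothelial-like nuclei in BeAT with the span trend taken off and 0.57 in macrophage-like nuclei in BeAT when thinned. The others were in macrophage-like nuclei. Cebpd was 0.15 in BeAT with the span trend taken off. With doublets kept Zfp423 was 0.34 in BAT and 0.38 in BeAT, Ebf1 0.33 and Ebf3 0.29 in BeAT. With nuclei classed by their own markers Zfp423 was 0.018 in BAT and Ebf1 0.13 in BeAT, and in cluster 4 Ebf1 was 1.30 in BeAT. No paired analysis was made because the labels give no replicate numbers and each group is 1 library. Depth limits Cebpa in progenitor- and endothelial-like, Ebf2 in endothelial- and macrophage-like and Klf15 in endothelial- and macrophage-like nuclei of the surgery libraries, which held few UMIs.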

Other observations

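Several smaller groups of nuclei carried these factors, with no test. Lymphatic endothelial-like nuclei (cluster 31, led by Reln, Mmrn1 and Prox1) had Zfp423 at 805 in BAT surgery and 391 in BeAT surgery, Ebf1 at 1641 and 987 and Pparg at 526 and 169. Unnamed cluster 14, with the mural cell genes Rgs5, Myh11 and Acta2 among its leading genes, had Ebf1 at 5247 in BAT sham, 4548 in BAT surgery and 3515 in BeAT sham. It also had Ebf2 at 1164, 874 and 709.6, above adipocyte-like nuclei of the same libraries and below progenitor-like nuclei. Cluster 32, found in BeAT surgery alone and led by Csmd1, Pcdh15 and Nxph1, had Ebf1 at 2569.9 and Ebf3 at 479.5 beside Ebf2 at 3.40. Of the epithelial-like clusters of BAT surgery, cluster 8 had Cebpb at 56.7 and Zfp423 at 53.8, and cluster 7 had Klf15 at 14.4. Ebf4, the remaining EBF gene, did not exceed 7.77 in the 5 classes of any library.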
